A study of Mus musculus with 12 samples.

Results

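Livers of mice on a high-fat diet (HFD control, 4 libraries) were compared with livers of mice on normal chow (lean, 4 libraries). These are 8 of the 12 liver RNA-seq libraries of the series, and all animals were C57BL/6NTac males. Both diets ran for 21 weeks before treatment, after which the study examined other mice on the high-fat diet for MASH, a fatty liver disease with inflammation and scarring. Both groups then received a control mRNA in lipid nanoparticles each week for 6 weeks on their diets, and livers were collected 24 hours after the last dose. Another label gives 28 weeks of feeding, and the mice are called 24 weeks old, so their age at each step cannot be placed exactly. The columns of the HFD control libraries carry the name mOX40L and those of the lean libraries do not, and whether both groups received the same control mRNA is not given. Tnfsf4, the mouse gene for OX40L, had 0 counts in all 8 libraries, where 3 counts correspond to 0.0792 to 0.153 CPM, the unit used below for a gene's counts relative to the scaled total of its library. Whether a delivered mRNA would be counted under this gene was not tested, so these counts do not show which mRNA was given. The remaining 4 libraries, from mice on the high-fat diet given mRNA for NM-FGF19, a form of the gut hormone FGF19, served only the filter, the scaling and the estimate of spread. Of 55359 genes in the table, the 15274 that passed a filter on low counts were compared. The labels number the libraries of a group as replicates without saying that each is a separate animal, so p-values measure the spread between these libraries.

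Hepatocytes take up, make, burn, store and export lipid, and they sense their sterol content through the transcription factor SREBP2, which switches on the genes of cholesterol synthesis and LDL uptake when sterols run low. Fatty acids activate PPAR-alpha, which switches on fatty acid oxidation in mitochondria and peroxisomes. Around the hepatocytes lie resident macrophages called Kupffer cells, stellate cells that lay down collagen when activated, and sinusoidal endothelium. In steatohepatitis, blood monocytes enter the liver and can become macrophages that take up lipid. The RNA came from whole liver sections, so fewer cells of a type and less RNA per cell cannot be told apart in any value below.

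Totals were 23743415 to 30349156 counted reads in lean and 32284438 to 33257260 in HFD control libraries. TMM factors, which scale each library, ran from 0.779 (lean 3) to 0.963 in lean and from 1.06 to 1.17 in HFD control libraries. Mitochondrial genes took 4.39 to 5.42% of counts over the 8 libraries. Liver identity was plain in all of them: albumin mRNA (Alb) stood at 45793 to 63234 CPM in lean and 24381 to 41990.4 in HFD control libraries. Its log2 change was -0.71 ± 0.24 (SE, adjusted p = 0.0842), which did not pass. On the first 2 principal components, which held 43.5% and 18% of variance, 2 libraries stood apart from the rest of their groups, lean 3 and HFD control 3, and HFD control 2 lay nearest to the lean libraries. Each count of calls that leads a paragraph is therefore also given with lean 3 and HFD control 3 left out, except for lists without a call.

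Of the 15274 genes, 770 rose in HFD control livers and 502 fell (edgeR's quasi-likelihood F test, Benjamini-Hochberg adjusted p at most 0.05). These are 5.04% higher and 3.29% lower, or 8.33% in either direction, the shares against which the gene lists below are read. Among the called genes, 701 of the higher and 458 of the lower had groups that did not overlap, and over all genes 8.4% lay wholly higher and 6.89% wholly lower. Changes over 4-fold made up 181 of the higher and 107 of the lower calls. The median log2 change of all genes was -0.02 with TMM scaling. Scaling by library totals alone moved it to 0.29, where the counts were 2383 higher and 228 lower, and 91.3% of calls were higher in place of 60.5%. Leaving out lean 3 and HFD control 3 gave 323 higher and 157 lower, with 433 of the 1272 calls shared. All 1272 genes kept their direction there. In all 8 fits that left out a single library, 287 of the higher and 138 of the lower calls held. A gene below kept its call in all 8 of these fits unless libraries are named where its change is given.

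**Figure D1:**
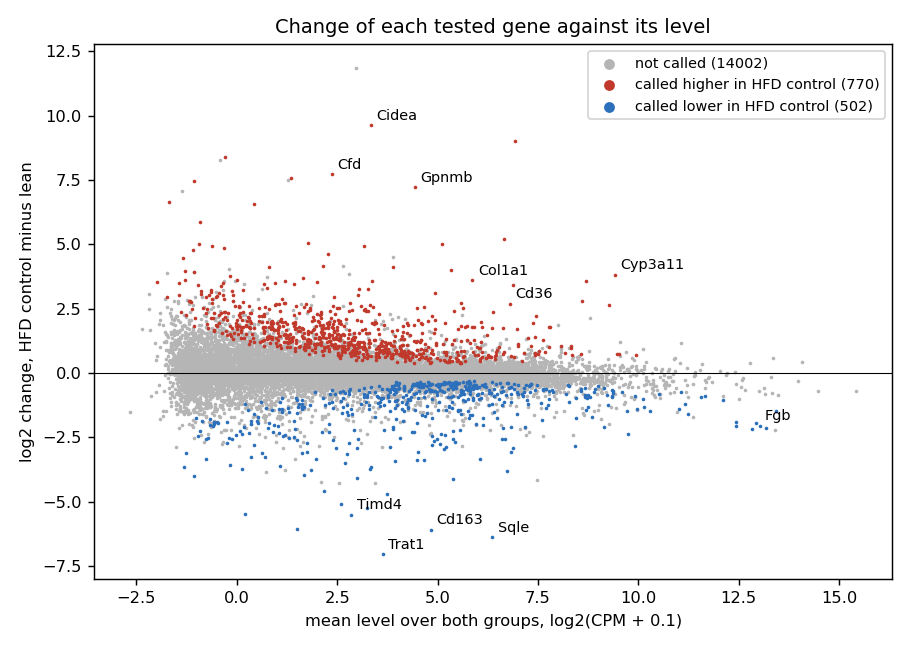
Each point is 1 of the 15274 genes tested. The horizontal axis is the mean level over the 8 libraries as log2(CPM + 0.1), the vertical axis the log2 change of HFD control against lean, red marks the 770 genes called higher and blue the 502 called lower. Labelled genes are described in the text, and the deepest falls include Sqle at -6.36 and Cd163 at -6.08.

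Several of the genes with the smallest adjusted p-values had little spread inside each group. Gramd1b, which encodes a carrier of cholesterol from the plasma membrane to the endoplasmic reticulum, was at 3.12, 2.88, 4.39 and 2.97 CPM in lean libraries 1 to 4 and at 13.5, 14.9, 11.5 and 14.4 in HFD control libraries 1 to 4. All HFD control values lay above all lean values, and the log2 change was 2.02 ± 0.18 (SE, adjusted p = 0.000476). Gatm, for the first enzyme of creatine synthesis, was at 8.12, 9.71, 7.34 and 10.4 CPM in lean and 20.2, 20.8, 23.5 and 19.2 in HFD control libraries, a log2 change of 1.23 ± 0.13 (SE, adjusted p = 0.00139). Endothelial genes stood in the same group of genes. Tie1, an endothelial receptor, was at 18, 16.2, 12.5 and 17.3 CPM against 29.8, 38.7, 35.7 and 37.1, a change of 1.14 ± 0.13 (SE, adjusted p = 0.00149). Myct1, also of endothelial cells, changed by 1.17 ± 0.13 (SE, adjusted p = 0.00141), and Hspg2, for the basement membrane proteoglycan perlecan, by 1.30 ± 0.16 (SE, adjusted p = 0.00252). The groups did not overlap for these genes either. Sirpb1c, a signal regulatory protein gene with close relatives, was lower in level, at 0.0685, 0.186, 0.102 and 0.175 CPM against 2.06, 1.16, 2.22 and 1.22 (change 3.63 ± 0.46 (SE, adjusted p = 0.00267)).

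The largest changes among genes of at least 2 CPM mixed steady with uneven genes. Prtn3, a granule protease of immature neutrophils, was at 8.46, 30.7, 51.2 and 12.3 CPM in lean and 1.80, 1.83, 0.160 and 0.171 in HFD control libraries (change -4.69 ± 0.90 (SE, adjusted p = 0.0131), and -4.09 without lean 3). Trat1, an adaptor of the T cell receptor, was at 1.03, 5.30, 87.2 and 4.37 CPM against 0, 0.464, 0.214 and 0.0569, with lean 3 far above the other lean libraries. Its change of -7.04 was -8.01 without HFD control 2 and -4.23 without lean 3, and its call was lost without HFD control 1, 3 or 4 (adjusted p up to 0.0851). Igdcc4 and Tmc5 were also highest in lean 3, at 0.685, 3.90, 38.9 and 2.62 and 3.53, 7.76, 44.6 and 17.1 CPM in lean libraries 1 to 4. Igdcc4 changed by -5.07, was at -2.79 without lean 3 and lost its call without HFD control 1, 3 or 4 (adjusted p up to 0.0667). Tmc5 changed by -5.24, was at -7.34 without HFD control 2 and -4.26 without lean 3 and lost its call without HFD control 1, 3 or 4 or lean 3 or 4 (adjusted p up to 0.0842). Ptgds, a prostaglandin D synthase gene, was even within groups, at 7.67, 5.99, 4.54 and 5.16 CPM against 0.343, 0.812, 0.160 and 0.171 (change -3.97 ± 0.60 (SE, adjusted p = 0.00418), and -4.67 without HFD control 2). Ephb2, an ephrin receptor gene, was at 0.274, 0.279, 0.204 and 0 CPM against 1.98, 0.985, 21.3 and 1.42, a change of 5.04 that was 2.91 without HFD control 3 and lost its call without HFD control 3 or lean 1, 2, 3 or 4 (adjusted p up to 0.0670).

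Genes of cholesterol synthesis fell in both arms of the pathway. The pathway begins with the mevalonate arm, which builds isoprene units and joins them into squalene. Of its 9 genes tested 8 fell and none rose, with a median log2 change of -2.28. Hmgcs1 makes HMG-CoA, and its log2 change was -2.10 ± 0.50 (SE, adjusted p = 0.0274). Mvk, for the kinase that phosphorylates mevalonate, went from 25.3, 42.4, 40.4 and 32.4 CPM to 8.19, 6.84, 7.53 and 6.42, a change of -2.28 ± 0.31 (SE, adjusted p = 0.00316). Pmvk and Mvd, the next kinase and the decarboxylase, changed by -2.36 and -3.42. Idi1, for the isomerase of the isoprene units, was at 9.52, 18.9, 16 and 15.3 CPM against 1.27, 0.956, 0.587 and 0.739, and its -4.06 ± 0.61 (SE, adjusted p = 0.00516) was the deepest fall of the arm. Fdps and Fdft1, which join the units into farnesyl diphosphate and squalene, changed by -3.37 and -1.75. Acat2, a thiolase gene at the entry, did not pass at -0.92 (adjusted p = 0.119). The call of Hmgcs1 was lost without HFD control 1, 2, 3 or 4 or lean 2, 3 or 4 (adjusted p up to 0.0727), that of Mvd without HFD control 1, 3 or 4 or lean 2 or 4 (adjusted p up to 0.0706). The arm's 8 calls became 5 without HFD control 1, 3 or 4 or lean 2 or 4 and 2 with both lean 3 and HFD control 3 left out, while its median without those 2 libraries was -2.24.

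From squalene to cholesterol, all 11 genes tested fell, with a median of -2.20. Sqle, whose enzyme puts the first oxygen on squalene, was at 83.1, 175, 265 and 125 CPM in lean libraries and 2.40, 1.36, 2.40 and 1.68 in HFD control libraries. The lowest lean library was still far above the highest HFD control library, and the change was -6.36 ± 0.83 (SE, adjusted p = 0.00316). Lss closes the sterol ring and changed by -2.20, and Cyp51, Msmo1 and Nsdhl, which remove methyl groups from it, by -3.78, -2.89 and -3.32. Tm7sf2, a sterol reductase, stood at 108, 108, 114 and 121 CPM against 25.6, 32.5, 25.6 and 28.5, a change of -2.01 ± 0.26 (SE, adjusted p = 0.00267). Dhcr7, a late sterol reductase, went from 130.4, 188, 219.7 and 166 CPM to 33.5, 30.1, 31.2 and 23.1, a change of -2.58 ± 0.35 (SE, adjusted p = 0.00316). Smaller falls were those of Hsd17b7 at -1.45, Sc5d at -0.97 and Ebp at -0.66. Sc5d lost its call without HFD control 1, 3 or 4 or lean 2 or 4 (adjusted p up to 0.0880). The 11 became 5 with both lean 3 and HFD control 3 left out, at a median of -2.09. In single HFD control libraries the median over the 11 genes lay at -2.13, -2.08, -2.46 and -2.31 relative to the lean mean, so the 4 libraries were close to each other in this respect.

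**Figure D2:**
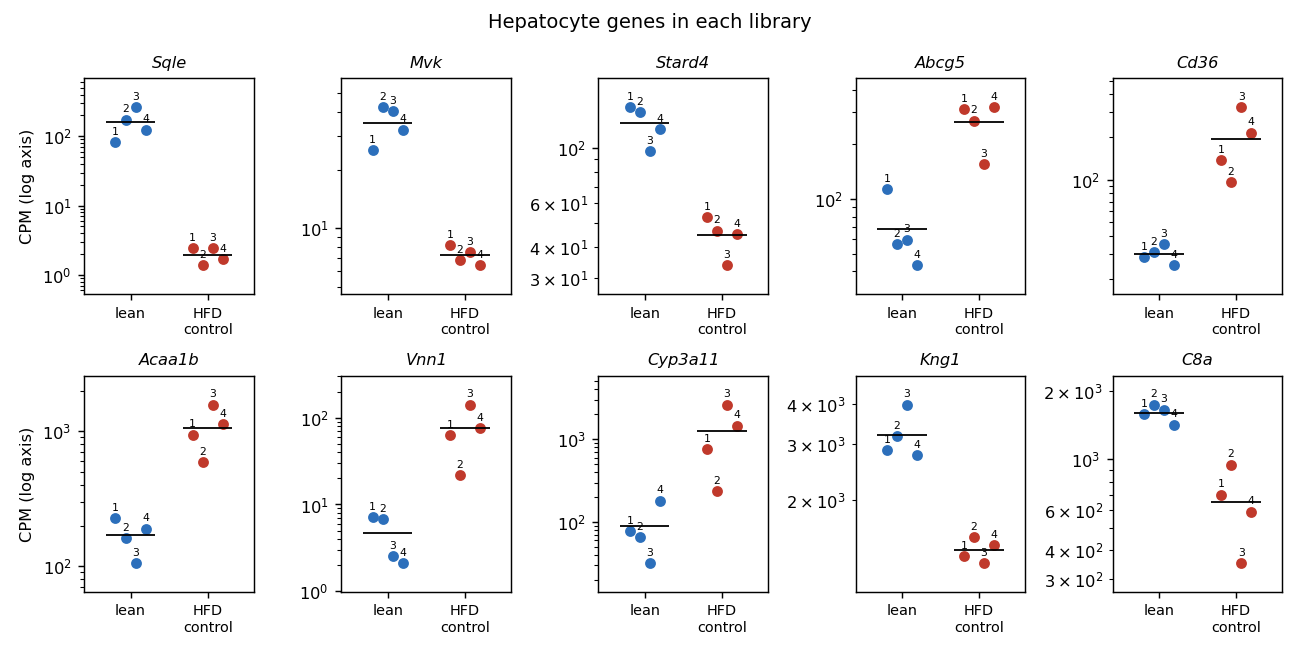
CPM of 10 hepatocyte genes on log axes, 1 point per library with its replicate number, blue for lean and red for HFD control, and a line at the mean of 4. Sqle, Mvk and Stard4 lie low in all HFD control libraries, whereas Cd36, Vnn1 and Cyp3a11 spread widely among them, with HFD control 2 lowest in each.

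Promoters of these genes were read to show what the members share apart from their change. The windows are the 250 bases before the annotated start in the RefSeq table of build GRCm38.p6, 5′ to 3′ on the gene's strand. Capitals mark CCAAT, the box bound by NF-Y, on either strand (ATTGG on the other), and TCACNCCAC, a form of the sterol regulatory element that SREBP binds, also searched on both strands. Hmgcs1 is shown because it held the sterol element searched, Idi1 as the deepest fall of its arm, Mvk for its number of CCAAT boxes, and Tm7sf2 for its small spread. The 4 windows are chr13:119690101-119690350 (+), chr13:8885356-8885605 (+), chr5:114444019-114444268 (+) and chr19:6067851-6068100 (-).
Hmgcs1: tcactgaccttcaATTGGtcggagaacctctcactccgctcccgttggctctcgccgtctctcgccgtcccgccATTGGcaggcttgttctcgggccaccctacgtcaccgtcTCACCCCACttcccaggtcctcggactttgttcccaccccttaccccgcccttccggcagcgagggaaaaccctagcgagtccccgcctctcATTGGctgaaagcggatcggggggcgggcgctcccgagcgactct
Idi1: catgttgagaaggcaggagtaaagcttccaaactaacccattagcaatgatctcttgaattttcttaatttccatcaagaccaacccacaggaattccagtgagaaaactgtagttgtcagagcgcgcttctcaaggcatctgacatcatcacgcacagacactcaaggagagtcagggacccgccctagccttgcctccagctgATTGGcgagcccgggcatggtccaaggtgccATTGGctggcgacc
Mvk: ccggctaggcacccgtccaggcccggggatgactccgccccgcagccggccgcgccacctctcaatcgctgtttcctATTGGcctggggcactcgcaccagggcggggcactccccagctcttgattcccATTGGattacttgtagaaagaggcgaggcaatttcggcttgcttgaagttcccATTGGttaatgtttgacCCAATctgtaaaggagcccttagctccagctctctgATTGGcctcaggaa
Tm7sf2: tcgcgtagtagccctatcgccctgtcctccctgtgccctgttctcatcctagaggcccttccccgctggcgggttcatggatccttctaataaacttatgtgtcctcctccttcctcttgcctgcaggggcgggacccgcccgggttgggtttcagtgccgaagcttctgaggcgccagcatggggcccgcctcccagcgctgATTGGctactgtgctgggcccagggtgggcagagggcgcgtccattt
The CCAAT box occurred 3 times in Hmgcs1, 2 times in Idi1, 5 times in Mvk and 1 time in Tm7sf2. Of the 19 called genes of both arms, 14 had an entry in the table, and each of the 14 held at least 1 CCAAT box in a promoter. Counted by promoter it was 14 of 17 (82.35%), against 33.85% of all 32851 promoters of the same length. TCACNCCAC was in 1 of the 17, that of Hmgcs1, against 1.053% of all promoters. A match here is a run of letters and not a measured binding site, and other forms of either element were not searched.

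Regulators of sterol sensing moved less evenly. Of 13 genes tested on the list of SREBP regulators and LDL uptake, 5 fell and none rose, with a median of -0.53. Srebf2, the gene of SREBP2 itself, was at 68.4, 83.9, 85.2 and 81.4 CPM in lean and 40.2, 39.9, 39.3 and 33.3 in HFD control libraries. These 2 sets of values did not overlap, and the change was -1.06 ± 0.17 (SE, adjusted p = 0.00566). Stard4, for a cytosolic sterol carrier, went from 147, 139, 97.5 and 119 CPM to 52.8, 46.5, 33.6 and 45.1, a change of -1.50 ± 0.23 (SE, adjusted p = 0.00404). Insig1, which holds SREBP in the endoplasmic reticulum and is itself an SREBP target, changed by -1.83 ± 0.43 (SE, adjusted p = 0.0250). Scap, the sterol-sensing escort of SREBP, changed by -0.55 ± 0.14 (SE, adjusted p = 0.0343). Srebf1, the gene of the SREBP form that drives lipogenesis, did not pass, at 0.94. Insig1 lost its call without HFD control 1, 3 or 4 or lean 2, 3 or 4 (adjusted p up to 0.0814) and Scap without HFD control 1, 3 or 4 or lean 1, 2 or 4 (adjusted p up to 0.0931). The 5 calls became 3 without HFD control 1 or 4 or lean 2 or 4, 2 without HFD control 3 and 2 with both lean 3 and HFD control 3 left out.

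On the opposite side of sterol balance, 3 of 10 genes of sterol efflux rose and none fell, with a median of 0.35. With both lean 3 and HFD control 3 left out 3 were also called higher. Abcg5 and Abcg8 form the pump that moves cholesterol into bile. Abcg5 stood at 113, 56.5, 59.8 and 43.1 CPM in lean and 312, 270.4, 156 and 321 in HFD control libraries, with the lowest HFD control value above the highest lean value. It rose by 1.96 ± 0.34 (SE, adjusted p = 0.00848) and Abcg8 by 1.81 ± 0.32 (SE, adjusted p = 0.00848). Abcg1, a cholesterol exporter with high levels in macrophages, went from 12.8, 16.1, 14 and 12.9 CPM to 36.8, 34.2, 41.9 and 23.8, a change of 1.29 ± 0.17 (SE, adjusted p = 0.00267). Abca1, another target of the sterol receptor LXR, did not pass at -0.28, nor did the LXR gene Nr1h3 at -0.10.

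Fatty acid oxidation genes rose in part. In peroxisomes, 6 of 19 rose and none fell, with a median of 0.69. Acaa1b, a peroxisomal thiolase, was at 227, 162, 105 and 190.03 CPM in lean and 944, 589.5, 1571 and 1124 in HFD control libraries. HFD control 2 was the lowest of its group and still above every lean library, and the change was 2.63 ± 0.36 (SE, adjusted p = 0.00287). Ehhadh, the bifunctional enzyme of peroxisomal oxidation, changed by 1.80 ± 0.25 (SE, adjusted p = 0.00285). The 6 calls became 3 without HFD control 3 or 4 or lean 2, 3 or 4 and 3 with both lean 3 and HFD control 3 left out. DESeq2 called 10 higher, voom 5 and library totals alone 12, and 18 of the 19 changes were above 0. Among mitochondrial oxidation and ketogenesis genes, 9 of 20 rose and none fell, at a median of 0.61. Eci1, an enoyl-CoA isomerase, went from 71.5, 65.9, 47.9 and 60.5 CPM to 105, 92.7, 155 and 139.7, a change of 1 ± 0.17 (SE, adjusted p = 0.00772), and Acat1, the ketone thiolase, changed by 0.98 ± 0.17 (SE, adjusted p = 0.00848). Cpt1a, which admits fatty acids to mitochondria, did not pass at 0.28. These 9 became 2 without HFD control 3, 4 without HFD control 4, 3 without lean 2, 3 or 4 and 2 with both lean 3 and HFD control 3 left out. DESeq2 called 14 higher, voom 8 and library totals alone 17, and all 20 changes were above 0. Respiratory chain and ATP synthase genes, by contrast, gave no call in 36 tested, with changes from -0.33 to 0.13; at an unadjusted p under 0.05 there were 0 higher and 0 lower, and DESeq2 and voom called 0.

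Microsomal omega-hydroxylases of fatty acids, classical PPAR-alpha targets, rose the most of all oxidation genes named, and unevenly. Cyp4a14 was at 0.890, 0.186, 0.663 and 0.0874 CPM in lean and 151, 1.51, 334 and 489 in HFD control libraries. HFD control 2 was close to the lean range, while the other 3 were far above it. The change was 9 ± 1.88 (SE, adjusted p = 0.0185). Cyp4a10 was at 14, 2.51, 1.89 and 2.40 CPM against 182, 14.2, 236 and 349, a change of 5.20 ± 1.13 (SE, adjusted p = 0.0215), with HFD control 2 just above lean 1. Cyp4a14 lost its call without HFD control 3 or lean 2 or 3 (adjusted p up to 0.0531) and was at 8.41 without HFD control 4 and 9.65 without lean 1. Cyp4a10 lost its call without HFD control 3 or lean 2, 3 or 4 (adjusted p up to 0.0588) and was at 6.43 without lean 1. Cyp4a genes are near-identical copies, and how reads that fit several copies were counted is not given. Vnn1, a pantetheinase gene and another PPAR-alpha target, went from 7.12, 6.74, 2.55 and 2.10 CPM to 63.4, 22, 142 and 75.6, a change of 4.02 ± 0.60 (SE, adjusted p = 0.00516).

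Uptake of fatty acids and triglyceride synthesis gave 5 higher genes of 21 and none lower, at a median of 0.14. The 5 became 4 with both lean 3 and HFD control 3 left out. Cd36, a fatty acid transporter, was at 28.3, 31, 35.2 and 24.8 CPM in lean and 137, 95.6, 326 and 215 in HFD control libraries. HFD control 3 was highest and HFD control 2 lowest, and no library entered the range of the other group (log2 change 2.70 ± 0.34 (SE, adjusted p = 0.00267)). Vldlr, the VLDL receptor, went from 0.411, 0.186, 0.408 and 0.437 CPM to 4.12, 2.26, 15.2 and 14.7, a change of 4.63 ± 0.90 (SE, adjusted p = 0.0132). Lpl, the lipase that frees fatty acids from lipoproteins, changed by 1.76 ± 0.27 (SE, adjusted p = 0.00511), and Fabp2, a fatty acid carrier, by 1.98. Mogat1, an enzyme of triglyceride synthesis, had 2 counts over the lean libraries and 360 over the HFD control libraries, a ratio of 116 with an exact 95% counting interval of 31.8 to 959 (adjusted p = 0.00317). Its fitted log2 change was at 5.92 without HFD control 3 and 9.22 without lean 2, against 6.57 with all libraries. Dgat1 and Dgat2, which add the last acyl chain, did not pass at 0.02 and -0.02.

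Among 17 lipid droplet proteins, 3 rose, with a median of 0.34. Fitm1, which helps droplets bud, was at 15.6, 14.3, 9.43 and 17.6 CPM in lean and 48.8, 24.8, 68 and 43.8 in HFD control libraries, a change of 1.70 ± 0.29 (SE, adjusted p = 0.00731). Cidea and Cidec encode proteins that fuse small droplets into large ones. Cidea had 2 counts over the lean libraries and 2975 over the HFD control libraries, a ratio of 956 (counting interval 264.5 to 7899, adjusted p = 0.0317), and HFD control libraries 1 to 4 held 8.29, 0.348, 58.1 and 13.4 CPM. Cidec was at 2.57, 2.37, 1.17 and 2.01 CPM against 22.2, 3.45, 199 and 44.2, a change of 5.03 ± 1.25 (SE, adjusted p = 0.0350). HFD control 3 was highest and HFD control 2 lowest for both. Plin2, the main droplet coat protein of hepatocytes, was at 193, 224, 145 and 267 CPM against 288, 228, 789 and 321 and did not pass (0.97 ± 0.37, adjusted p = 0.130). Cidea lost its call without HFD control 1 or 3 or lean 1, 2, 3 or 4 (adjusted p up to 0.109) and its fitted change of 9.62 was at 8.17 without HFD control 3 and 12.22 without lean 1. Cidec lost its call without HFD control 1, 3 or 4 or lean 1, 2, 3 or 4 (adjusted p up to 0.0898) and was at 3.51 without HFD control 3. The 3 calls became 1 without HFD control 1 or 3 or lean 2 or 4, 6 without HFD control 2 and 1 with both lean 3 and HFD control 3 left out.

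Fat cells express several of these genes too. On the adipocyte marker list, which shares genes with the droplet list, 4 of 8 tested rose (Cidea, Cidec, Cfd and Lpl) and none fell. The summed level of the list ran at 58.5 to 188 CPM in lean and 192 to 709 in HFD control libraries. The defining fat cell markers Plin1 and Lep had 0 counts in all 8 libraries, Adipoq held 4 counts in lean and 2 in HFD control libraries, and Retn held 0 and 4. The 4 calls became 2 without HFD control 1 or 3 or lean 1, 2 or 4 and 1 with both lean 3 and HFD control 3 left out.

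Lipogenesis showed 1 lower gene of 15 and none higher, at a median of -0.27 that turned to 0.05 with library totals alone. The gene was Acss2, for an acetyl-CoA synthetase that is also an SREBP2 target, at 185, 177, 190.3 and 208 CPM against 73.3, 69.7, 51.4 and 59.9 (change -1.58 ± 0.31 (SE, adjusted p = 0.0127)). The count of 1 became 2 without HFD control 2 and 0 with both lean 3 and HFD control 3 left out, where 1 other gene was higher. Fasn, the fatty acid synthase, was at 197, 338, 166 and 551 CPM against 247, 179, 225 and 89.3 (-0.76, adjusted p = 0.370). Scd1, the stearoyl-CoA desaturase, was at 6155, 6335, 14435 and 6957 against 13970.5, 5340.2, 21462 and 9504 (0.57, adjusted p = 0.517). For both genes the groups overlapped.

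Other branches of hepatocyte metabolism gave shares of calls near or under the background. Amino acid catabolism had no call in 31 genes by edgeR, where at an unadjusted p under 0.05 there were 0 higher and 4 lower, DESeq2 called 3 lower and voom 1 lower. The urea cycle had 1 lower of 12, one-carbon metabolism 1 lower of 20, bile acid synthesis 1 lower of 13, and glycolysis, gluconeogenesis and glycogen 1 higher of 27. The 4 genes were Nags, which makes the activator of the urea cycle (-0.84), the folate enzyme gene Aldh1l1 (-1), Cyp27a1 of the alternative bile acid pathway (-0.50) and Ugp2, which makes UDP-glucose (0.73). Each of the 4 lost its call when single libraries were left out: Nags without HFD control 1, 3 or 4 or lean 3 or 4 (adjusted p up to 0.0672), Aldh1l1 without HFD control 1, 3 or 4 or lean 1, 3 or 4 (adjusted p up to 0.0912), Cyp27a1 without HFD control 1, 2 or 3 or lean 1, 2, 3 or 4 (adjusted p up to 0.155) and Ugp2 without HFD control 1, 3 or 4 or lean 2, 3 or 4 (adjusted p up to 0.118). With both lean 3 and HFD control 3 left out these 4 lists gave 0 lower and 2 higher calls, the 2 among glycolysis, gluconeogenesis and glycogen genes. Cyp7a1, the rate-limiting enzyme of bile acid synthesis, was at 431, 64.1, 155 and 33.9 CPM in lean and 246, 241, 73.6 and 386 in HFD control libraries, and the groups overlapped.

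Drug metabolism changed in single genes. Of 20 cytochrome P450 genes 2 rose and 1 fell. Cyp3a11, the main mouse CYP3A drug-metabolising enzyme and a target of the xenobiotic receptor PXR, was at 78.2, 66.3, 31.9 and 181 CPM in lean and 764, 237, 2609 and 1454 in HFD control libraries. All HFD control values exceeded the highest lean value, that of lean 4, but HFD control 2 only narrowly. The change was 3.82 ± 0.74 (SE, adjusted p = 0.0132), at 3.19 without HFD control 3 and 4.45 without lean 4. Cyp2c38 rose by 2.03, and lost its call without HFD control 1, 3 or 4 or lean 1, 2, 3 or 4 (adjusted p up to 0.121). Cyp2f2, a periportal P450, fell from 1443, 1203, 923 and 1339.7 CPM to 383, 637, 339.97 and 417 (change -1.47 ± 0.32 (SE, adjusted p = 0.0181)), and lost its call without HFD control 1 or 3 (adjusted p up to 0.0572). For P450 genes the 2 higher calls became 1 without HFD control 1, 3 or 4 or lean 2, 3 or 4 and 0 with both lean 3 and HFD control 3 left out, and the 1 lower call 0 without HFD control 1 or 3, 2 without HFD control 2 or 4 and 0 with both lean 3 and HFD control 3 left out. Of 32 transferase genes 2 rose, Gsta1 with 2 counts in lean and 731 in HFD control libraries (ratio 235, counting interval 64.8 to 1944, call lost without lean 2 or 4 (adjusted p up to 0.0591), fitted log2 change 7.57 with all libraries, 5.82 without HFD control 3 and 10.21 without lean 4), and Sult1c2 at 1.47, which lost its call without HFD control 1, 3 or 4 or lean 2, 3 or 4 (adjusted p up to 0.0956). Among 18 targets of the oxidative stress factor NRF2, the glutathione synthesis gene Gclc rose by 1.02 ± 0.23 (SE, adjusted p = 0.0201) and the epoxide hydrolase gene Ephx1 by 1.05 ± 0.25 (SE, adjusted p = 0.0232). Gclc lost its call without HFD control 1 or 3 (adjusted p up to 0.0580) and Ephx1 without HFD control 3 or lean 2 (adjusted p up to 0.0633), and the 2 became 1 without HFD control 1 or lean 2, 6 with HFD control 2 left out, 0 with HFD control 3 left out and 0 with both lean 3 and HFD control 3 left out. For the transferases the 2 became 1 without HFD control 1, 3 or 4 or lean 3, 5 without HFD control 2, 0 without lean 2 or 4 and 1 with both lean 3 and HFD control 3 left out, where 1 transferase gene was called lower. P450 and transferase families hold near-identical copies, so single values are uncertain.

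Several genes of secreted plasma proteins were lower. Of 22 coagulation genes 9 fell and none rose, at a median of -0.60 (-0.29 with library totals alone). The 3 fibrinogen chains led: Fga, Fgg and Fgb changed by -2.14, -2.05 and -2.04. Fgb was at 6523, 11426, 24852 and 10649 CPM in lean and 3004, 4759, 1827 and 3412 in HFD control libraries, with lean 3 the highest of all and HFD control 3 the lowest. Kng1, for kininogen, was at 2868, 3174, 3976 and 2754 CPM against 1332, 1531, 1265 and 1439 (change -1.20 ± 0.16 (SE, adjusted p = 0.00275)). F11, Serpinf2, Kng2, F7 and F10 also fell, by 1.20, 0.90, 0.82, 0.81 and 0.74 on the log2 scale. Serpinf2 lost its call without HFD control 1 or 3 or lean 2, 3 or 4 (adjusted p up to 0.0750), Kng2 without HFD control 1 (adjusted p up to 0.0560), F7 without HFD control 1 or lean 1, 2, 3 or 4 (adjusted p up to 0.0916) and F10 without HFD control 1 or 3 or lean 2 or 3 (adjusted p up to 0.0810). Prothrombin (F2) and antithrombin (Serpinc1) did not pass at -0.46 and -0.48. The 9 became 5 without HFD control 1 and 6 with both lean 3 and HFD control 3 left out. The hepatocyte marker list had a median of -0.55 (-0.25 with library totals alone), with 2 lower and none higher of 12. DESeq2 called 7 of these markers lower. The 2 became 0 without HFD control 1 or 3, 4 without HFD control 2 and 1 without lean 2 or 4. With both lean 3 and HFD control 3 left out there were 0. Fibrinogen is also an acute phase protein, and Lcn2, another acute phase gene, was at 190.3, 782, 3621 and 508 CPM in lean libraries, highest in lean 3, against 1006, 1096, 1124 and 995. Whether the levels of fibrinogen and Lcn2 are linked was not tested.

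Complement genes gave 4 lower and 1 higher of 24, at a median of -0.49. C8a, for a chain of the membrane attack complex, was at 1578, 1735, 1652 and 1421 CPM in lean and 701, 948, 351 and 591 in HFD control libraries, a change of -1.30 ± 0.25 (SE, adjusted p = 0.0114). Cfi, for the protease that inactivates C3b, changed by -0.87 ± 0.16 (SE, adjusted p = 0.00848), C6 by -1.32 and C4bp by -0.72. C6 lost its call without HFD control 1, 3 or 4 or lean 2, 3 or 4 (adjusted p up to 0.0728) and C4bp without HFD control 1, 3 or 4 or lean 2 (adjusted p up to 0.0708). The 4 became 2 without HFD control 1, 3 or 4 or lean 2, 13 without HFD control 2 and 2 with both lean 3 and HFD control 3 left out. The gene that rose was Cfd (adipsin), which fat cells secrete, at 0, 0.186, 0 and 0 CPM in lean and 21.1, 0.754, 10.8 and 7.50 in HFD control libraries. Its change of 7.72 ± 1.31 (SE, adjusted p = 0.00848) was at 7.08 without HFD control 1 and 11.24 without lean 2. With both lean 3 and HFD control 3 left out it was at 7.38 and just missed the call (adjusted p = 0.05001), so the 1 higher call became 0. C1qa, C1qb and C1qc, made by macrophages, were near no change at -0.05, 0.13 and 0.06. Among 22 hepatokines Gpnmb, described with the macrophages, rose, the fetuin gene Fetub fell by 0.85 and the orosomucoid gene Orm1 by 1.41, and Orm1 lost its call without HFD control 3 (adjusted p up to 0.0521). The 1 higher and 2 lower calls became 1 and 0 with both lean 3 and HFD control 3 left out. Fgf21 and Gdf15, hormones of metabolic stress, did not pass at 1.44 and -0.16.

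Genes with male-biased liver expression gave 3 lower of 23 and none higher, at a median of -0.92. The list differed widely among the HFD control libraries. In HFD control libraries 1 to 4 the list median relative to the lean mean was -0.88, -0.11, -2.18 and -1.43. Hsd3b5, a male-specific steroid enzyme gene, was at 307, 308, 99.3 and 377 CPM in lean and 122, 285, 0.534 and 24.1 in HFD control libraries, from within the lean range in HFD control 2 to near absence in HFD control 3. Cyp7b1, which hydroxylates oxysterols, showed the same order among HFD control but not among lean libraries, at 654, 824, 689.96 and 841 CPM in lean against 210.1, 693, 64.5 and 134. Neither passed (adjusted p = 0.511 and 0.167). The 3 calls were C6 and C8a of complement and Gstp2, which changed by -1.40 and lost its call without HFD control 3 or 4 or lean 3 (adjusted p up to 0.0686). These 3 became 8 without HFD control 2, 1 without HFD control 3 or 4 or lean 3 and 1 with both lean 3 and HFD control 3 left out. Of 15 female-biased genes tested out of 27 matched, 11 changes were above 0, at a median of 1.20. Among them Vnn1 was called higher and Cyp2c40 and Cyp17a1 lower, the latter by 2.79 and 2.65. Cyp2c40 lost its call without HFD control 3 or lean 2 (adjusted p up to 0.0517) and Cyp17a1 without HFD control 1, 2, 3 or 4 or lean 3 (adjusted p up to 0.0959), and Cyp17a1 was at -1.69 without lean 3. With both lean 3 and HFD control 3 left out the list had 1 higher and 0 lower. Cyp2b9, a female-specific P450, had 0 counts in all lean libraries and 1.32, 0.348, 18 and 42.4 CPM in HFD control libraries, at least 477-fold higher against a floor of 3 counts over the lean group. It did not pass (adjusted p = 0.0856). In the growth hormone and IGF1 list no gene of 18 was called by edgeR. At an unadjusted p under 0.05 there were 1 higher and 3 lower, with 1 higher and 2 lower by DESeq2 and 0 by voom.

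Markers of resident Kupffer cells were lower. Of 7 tested 5 fell and none rose, with a median of -2.74. Cd163, a haemoglobin scavenger receptor, was at 42.3, 60.8, 77.1 and 42.9 CPM in lean and 1.40, 0.696, 0.641 and 0.540 in HFD control libraries (change -6.08 ± 1 (SE, adjusted p = 0.00848)). Timd4, a receptor for dying cells that marks embryonically seeded Kupffer cells, was at 12.5, 17.1, 13 and 13.1 CPM against 0.264, 0.348, 0.374 and 0.227 (change -5.50 ± 0.86 (SE, adjusted p = 0.00633)). For both genes every HFD control library was far under every lean library. Clec4f, a lectin of Kupffer cells, was at 148, 185, 151 and 179 CPM against 15.3, 24.2, 48.8 and 23.5 (change -2.57 ± 0.53 (SE, adjusted p = 0.0162)), with HFD control 3 the highest of its group. Vsig4, a complement receptor, changed by -2.74, and by -3.39 without HFD control 3. Marco, a scavenger receptor, changed by -3.49, at -4.71 without HFD control 2, and lost its call without HFD control 1, 3 or 4 or lean 2, 3 or 4 (adjusted p up to 0.128). Cd5l, a secreted macrophage protein, did not pass: it was at 167, 231, 192 and 166 CPM against 101, 187, 393 and 144. The summed level of the list, 427 to 583 CPM in lean and 126 to 463 in HFD control libraries, is dominated by Cd5l and Clec4f. The 5 calls became 3 with both lean 3 and HFD control 3 left out.

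Markers of recruited and lipid-associated macrophages moved up in the same livers, with 10 of 14 higher and 1 lower and a median of 2.34. Receptors of blood monocytes rose: Ccr2 was at 2.16, 4, 1.84 and 2.89 CPM in lean and 26.6, 17.4, 14.9 and 8.58 in HFD control libraries (change 2.63 ± 0.34 (SE, adjusted p = 0.00267)), and Cx3cr1 at 1.75, 1.58, 1.73 and 1.84 against 15.5, 14.4, 19 and 8.44 (change 3.05 ± 0.32 (SE, adjusted p = 0.00139)). Itgax (CD11c), an integrin of dendritic cells and lipid-laden macrophages, went from 1.40, 1.90, 1.53 and 1.36 CPM to 14.7, 12.4, 24.1 and 7.96 (change 3.26 ± 0.36 (SE, adjusted p = 0.00141)). None of these groups overlapped. Gpnmb, a lysosomal glycoprotein of macrophages loaded with lipid, was at 0.137, 0.557, 0.408 and 0.0874 CPM against 31.6, 22.5, 90.2 and 26.8 (change 7.22 ± 0.74 (SE, adjusted p = 0.00149), and 6.55 without HFD control 3). Trem2, the lipid receptor of the same cells, was at 1.85, 1.67, 3.72 and 1.49 CPM against 7.34, 6.06, 27 and 5.40 (change 2.40 ± 0.52 (SE, adjusted p = 0.0185)). HFD control 3 was highest for both. The call of Trem2 was lost without lean 2 or 4 (adjusted p up to 0.0556), and its change was 1.53 without HFD control 3. Mmp12, macrophage elastase, changed by 4.94 ± 0.94 (SE, adjusted p = 0.0127), or by 3.45 without HFD control 3. Fabp5, a fatty acid carrier, was the gene that fell, by 2.67, and it lost its call without HFD control 1, 2, 3 or 4 or lean 2, 3 or 4 (adjusted p up to 0.0765). The 10 higher calls became 8 and the 1 lower call became 0 with both lean 3 and HFD control 3 left out. Spp1 (osteopontin), shared with bile duct cells, did not pass at -0.95.

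**Figure D3:**
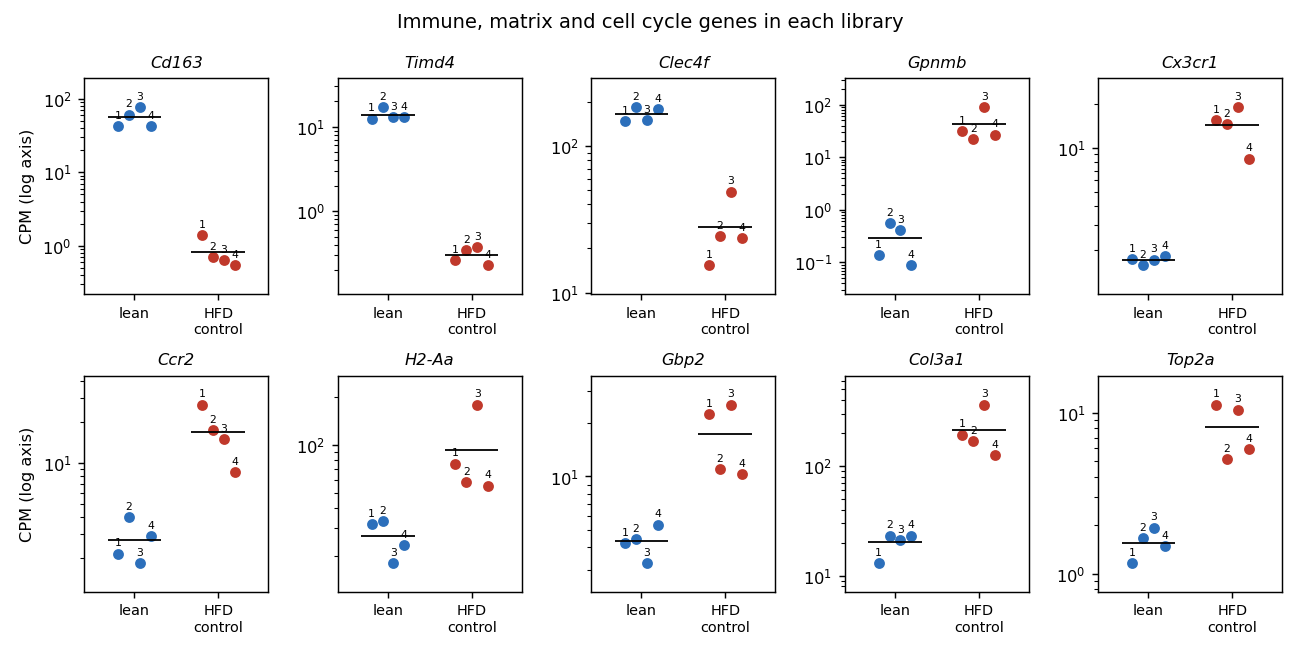
CPM of 10 genes of macrophages, antigen presentation, interferon response, matrix and cell cycle on log axes, 1 point per library with its replicate number, blue for lean and red for HFD control, and a line at the mean of 4. The groups do not overlap for any of the 10, and HFD control 3 is the highest library for Gpnmb, Cx3cr1, H2-Aa, Gbp2 and Col3a1. Among HFD control libraries it is also highest for Timd4 and Clec4f, which lie below the lean libraries.

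Chemokines, which guide these cells, went in both directions. Of 19 ligand genes 5 rose and 4 fell. With voom there were 0 higher and 3 lower, with DESeq2 8 and 5. The 8 libraries on their own gave 2 and 3, and library totals alone 9 and 3. Ccl2 and Ccl7, the ligands of CCR2, both rose. Ccl2 was at 0.137, 0.650, 0.255 and 0.175 CPM in lean and 3.12, 1.33, 7.77 and 1.25 in HFD control libraries (change 3.48 ± 0.77 (SE, adjusted p = 0.0184)), with the call lost without lean 4 (adjusted p up to 0.0541) and changes of 2.66 without HFD control 3 and 4.17 without lean 2. Ccl7 had 2 counts in lean and 123 in HFD control libraries, a ratio of 39.5 (counting interval 10.7 to 330.1, adjusted p = 0.0176), and its call was lost without HFD control 3 or lean 2 (adjusted p up to 0.0513). Its fitted log2 change of 5.01 was at 4.43 without HFD control 3 and 7.65 without lean 4. Cxcl9 and Cxcl10, induced by interferon, rose by 1.66 and 2.27, and Ccl4 by 3.10. Cxcl13, the B cell attractant, was at 1.30, 2.79, 2.04 and 2.10 CPM against 0, 0, 0.0534 and 0.114 (change -5.49 ± 1.05 (SE, adjusted p = 0.0111), and -6.52 without HFD control 4). Cxcl14 was at 15.3, 45.2, 217 and 37.4 CPM against 4.33, 4.35, 7.58 and 1.71, with lean 3 far above the other lean libraries. Its change of -4.13 was -2.83 without lean 3, and its call was lost without HFD control 1, 2, 3 or 4 or lean 3 (adjusted p up to 0.0820). Ccl24 and Ccl9 fell by 3.11 and 0.91. Lost calls also touched Cxcl9 without HFD control 1, 3 or 4 or lean 2, 3 or 4 (adjusted p up to 0.137), Cxcl10 without HFD control 1 or 3 or lean 2 (adjusted p up to 0.0556), Ccl4 without HFD control 1 or 3 or lean 1, 2 or 3 (adjusted p up to 0.106), Ccl24 without HFD control 3 (adjusted p up to 0.0502) and Ccl9 without HFD control 1, 2 or 4 or lean 1, 2, 3 or 4 (adjusted p up to 0.142). Ccl4 was at 4.26 without lean 4. The 5 higher calls became 2 without HFD control 1, 1 without HFD control 3 or lean 2, 3 without lean 3 or 4 and 0 with both lean 3 and HFD control 3 left out, and the 4 lower calls 2 without HFD control 1, 2, 3 or 4 or lean 3 and 3 with both lean 3 and HFD control 3 left out. Among 16 receptor genes 4 rose, Ccr1 by 2.64 and the scavenger receptor Ackr3 by 1.37 beside Ccr2 and Cx3cr1, and none fell. Ackr3 lost its call without HFD control 1, 2, 3 or 4 or lean 1, 2 or 4 (adjusted p up to 0.122) and was at 2.01 without lean 3. There were also 4 higher receptor genes with both lean 3 and HFD control 3 left out.

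Antigen presentation genes were read by class. Of 12 MHC class II genes 7 rose and none fell, at a median of 1.26. Ciita, the master activator of class II genes, was at 1.61, 1.21, 1.63 and 0.831 CPM in lean and 7.10, 5.13, 8.14 and 3.33 in HFD control libraries (change 2.16 ± 0.36 (SE, adjusted p = 0.00655)). H2-Aa, a class II chain, was at 31.7, 32.9, 18 and 23.4 CPM against 76.2, 58.4, 179 and 55.5 (change 1.80 ± 0.37 (SE, adjusted p = 0.0155)). HFD control 3 was highest for each. Cd74, the invariant chain, changed by 1.39 ± 0.34 (SE, adjusted p = 0.0274), and lost its call without HFD control 1 or 3 or lean 3 or 4 (adjusted p up to 0.0653). The 7 became 4 without HFD control 1 or 3 or lean 3 or 4 and 4 with both lean 3 and HFD control 3 left out. By contrast no gene of 18 for MHC class I was called by edgeR with TMM scaling, at a median of 0.31. At an unadjusted p under 0.05 there were 5 higher and 1 lower, DESeq2 called 2 higher, voom 0, and library totals alone 11 higher. Over all 15274 genes, 1989 were higher and 1763 lower at an unadjusted p under 0.05, and library totals alone called 2383 higher. The difference between the 2 classes was not tested. MHC genes have close relatives, so single values are uncertain.

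Interferon response genes gave 18 higher of 29 and none lower, at a median of 1.22. Gbp2, a GTPase that attacks pathogen vacuoles, was at 4.21, 4.46, 3.26 and 5.38 CPM in lean and 22.3, 11, 25.3 and 10.3 in HFD control libraries (change 1.99 ± 0.31 (SE, adjusted p = 0.00457)). Oas1a, a sensor of double-stranded RNA, was at 1.95, 3.39, 2.70 and 4.24 CPM against 15.1, 11.1, 16.8 and 7.62 (change 2.05 ± 0.32 (SE, adjusted p = 0.00501)). No HFD control library reached down to the lean range for either. The ubiquitin-like Isg15 rose by 1.43, the interferon regulator Irf7 by 1.76 and Ifi44 by 2.45. Isg15 lost its call without HFD control 1 or 3 (adjusted p up to 0.0563). Stat2, Irf9 and Irf1, other factors of the response, did not pass at -0.34, 0.16 and -0.07. The 18 became 10 without HFD control 1 or 3 and 9 with both lean 3 and HFD control 3 left out. HFD control 1 and HFD control 3 stood highest, with list medians of 1.56, 0.77, 1.47 and 1 in HFD control libraries 1 to 4.

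The windows of Gbp2 and Oas1a, chr3:142620413-142620662 (+) and chr5:120907526-120907775 (-), are shown because they had the smallest adjusted p of the list. Capitals mark GAAANNGAA, the core of the interferon-stimulated response element, on either strand; in Oas1a 2 matches overlap.
Gbp2: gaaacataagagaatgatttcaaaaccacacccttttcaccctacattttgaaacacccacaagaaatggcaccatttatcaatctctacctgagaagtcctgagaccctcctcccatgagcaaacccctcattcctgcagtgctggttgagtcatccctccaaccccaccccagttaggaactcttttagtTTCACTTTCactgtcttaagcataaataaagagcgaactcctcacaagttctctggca
Oas1a: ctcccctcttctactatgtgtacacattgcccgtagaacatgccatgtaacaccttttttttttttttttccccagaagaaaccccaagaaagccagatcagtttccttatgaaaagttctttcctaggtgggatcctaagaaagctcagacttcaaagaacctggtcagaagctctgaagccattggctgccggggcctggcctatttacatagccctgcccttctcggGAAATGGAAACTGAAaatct
Of the 18 interferon genes that rose, 12 had an entry, and 8 of the 12 held GAAANNGAA. By promoter it was 8 of 14 (57.14%), against 7.129% of all 32851. The CCAAT box was in 42.86% of the same 14 promoters, near its 33.85% in all.

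**Figure D4:**
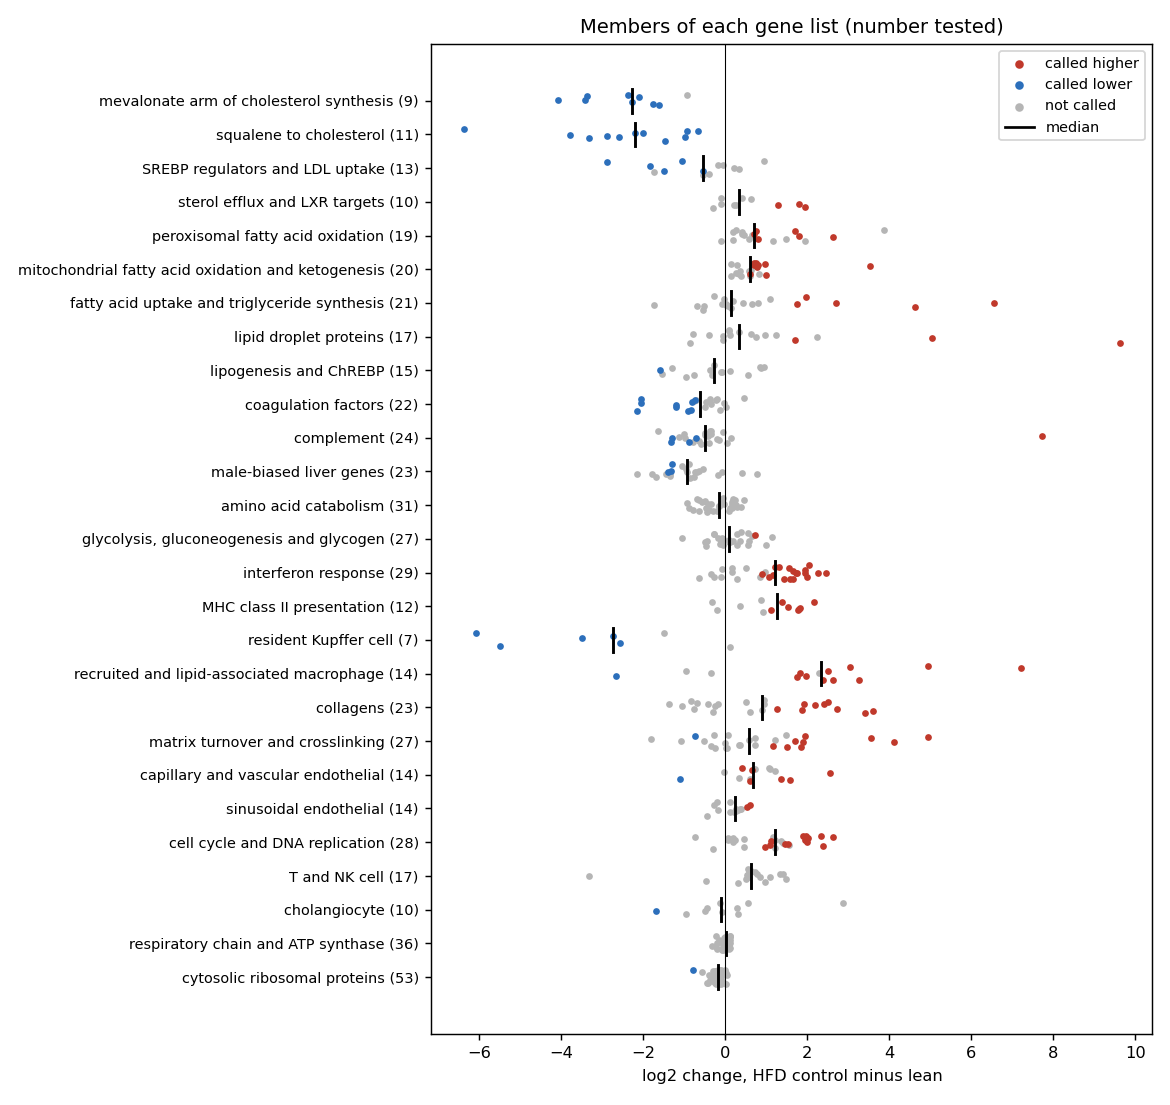
Log2 change of HFD control against lean for each tested gene of 27 lists, with the number tested in brackets. Red points were called higher, blue points lower and grey points not called, and the black bar is the list median, which is -2.28 for the mevalonate arm, 1.22 for interferon response and 0.02 for the respiratory chain.

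Collagens of scar rose while several others did not pass. Of 23 collagen genes 9 rose and none fell, at a median of 0.91. The fibrillar collagens came first. Col3a1 was at 13, 23.3, 21 and 23.3 CPM in lean and 194, 169, 363 and 126 in HFD control libraries (change 3.40 ± 0.57 (SE, adjusted p = 0.00848)). Col1a1 was at 4.25, 10.03, 10.5 and 10.6 CPM against 97, 63.4, 221 and 49 (change 3.61 ± 0.73 (SE, adjusted p = 0.0162), and 2.99 without HFD control 3). HFD control 3 was highest and HFD control 4 lowest for both, and the groups lay far apart. Col1a2 changed by 2.74, Col5a1 and Col5a2 by 1.86 and 2.40, and the microfibrillar Col6a1, Col6a2 and Col6a3 by 2.20, 2.52 and 1.92. Col1a2 lost its call without HFD control 3 or lean 1, 2, 3 or 4 (adjusted p up to 0.0689) and was at 2.11 without HFD control 3. Col6a1 lost its call without HFD control 1 or 3 or lean 1, 2, 3 or 4 (adjusted p up to 0.0873), Col6a2 without HFD control 1, 2 or 3 or lean 1, 2, 3 or 4 (adjusted p up to 0.133) and Col6a3 without HFD control 1, 2 or 3 or lean 1, 2 or 3 (adjusted p up to 0.0979). Col4a1 and Col4a2 of basement membrane did not pass at 0.61 and 0.51, nor did Col18a1 at -0.42. The 9 became 4 without HFD control 3 or lean 1 or 2, 5 without lean 3 or 4 and 0 with both lean 3 and HFD control 3 left out, where 1 collagen gene was called lower. Of 27 genes of matrix turnover and crosslinking, 9 rose and 1 fell. The crosslinking enzyme gene Loxl1 rose by 1.85 ± 0.39 (SE, adjusted p = 0.0155), the gelatinase gene Mmp2 by 1.90 ± 0.39 (SE, adjusted p = 0.0132) and the inhibitor gene Timp1 by 3.56. Timp1 lost its call without HFD control 3 or lean 2 or 4 (adjusted p up to 0.0703) and was at 2.76 without HFD control 3 and 4.38 without lean 3. Bmp1, which cleaves procollagen, fell by 0.73 and lost its call without HFD control 1, 3 or 4 or lean 1, 2, 3 or 4 (adjusted p up to 0.0889). The 9 became 5 without HFD control 3, 4 without lean 2 and 6 with both lean 3 and HFD control 3 left out, where the 1 lower call became 0.

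Stellate cell and fibroblast markers gave 6 higher of 15 on the activated list and 2 of 12 on the quiescent list, with none lower on either. Vim, an intermediate filament gene, was at 18.4, 24.1, 25 and 24.1 CPM in lean and 97.7, 58.8, 104 and 59.2 in HFD control libraries (change 1.81 ± 0.35 (SE, adjusted p = 0.0120)). Acta2, smooth muscle actin, was at 1.92, 2.65, 3.37 and 8.61 against 13.7, 4.70, 9.72 and 8.02 CPM, with overlapping groups (change 1.13 ± 0.51 (SE, adjusted p = 0.193)). Lrat, which esterifies retinol in quiescent stellate cells, rose by 1.21 ± 0.33 (SE, adjusted p = 0.0459), and Des, for desmin, by 1.01. Lrat lost its call in each of the 8 fits (adjusted p up to 0.119) and Des without HFD control 1, 3 or 4 or lean 1, 2 or 3 (adjusted p up to 0.115). The activated list's 6 became 3 without HFD control 1 or lean 1, 2 without HFD control 3 or lean 2 and 2 with both lean 3 and HFD control 3 left out, and the quiescent list's 2 became 1 without HFD control 1 or lean 3 or 4, 0 without HFD control 3 or 4 or lean 1 or 2 and 0 with both lean 3 and HFD control 3 left out.

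Endothelial genes were read by vessel type. Of 14 capillary and vascular endothelial markers 6 rose and 1 fell, at a median of 0.69. Ly6a was at 5.96, 9.66, 4.69 and 8.66 CPM in lean and 43.9, 33.2, 64.7 and 29.1 in HFD control libraries (change 2.56 ± 0.37 (SE, adjusted p = 0.00404)), and Emcn, for endomucin, at 3.42, 2.37, 2.24 and 3.41 against 7.97, 6.49, 8.62 and 6.71 (change 1.37 ± 0.27 (SE, adjusted p = 0.0114)). Neither gene's groups overlapped. Fbln2, Eng, Plvap and Pecam1 also rose, by 1.57, 0.66, 0.61 and 0.42. Fbln2 lost its call without HFD control 1 or 3 or lean 1 or 2 (adjusted p up to 0.0715), Plvap without HFD control 1 or 3 or lean 1, 2, 3 or 4 (adjusted p up to 0.122) and Pecam1 without HFD control 1, 2, 3 or 4 or lean 1, 2 or 4 (adjusted p up to 0.110). Cav1, of caveolae, fell by 1.09 and lost its call without HFD control 2, 3 or 4 or lean 1, 2 or 3 (adjusted p up to 0.132). The 6 became 3 without HFD control 1 or 3 or lean 1 or 2 and 3 with both lean 3 and HFD control 3 left out, where the 1 lower call became 0. Of 14 sinusoidal markers the transcription factor gene Maf and the Fc receptor gene Fcgr2b rose, by 0.61 and 0.54, and none fell. Stab2 and Lyve1, hyaluronan receptors of sinusoids, did not pass, at 79, 83.7, 113 and 82.5 against 87.3, 122, 99.7 and 118 CPM and 15.1, 18, 44.3 and 14.3 against 28.7, 19.8, 46.1 and 23.2 CPM. Maf lost its call without HFD control 3 or 4 or lean 4 (adjusted p up to 0.0634) and Fcgr2b without HFD control 2, 3 or 4 or lean 1, 2, 3 or 4 (adjusted p up to 0.132), and there were 0 calls with both lean 3 and HFD control 3 left out. Whether the 2 vessel types differ from each other was not tested.

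Genes of the cell cycle rose in 13 of 28 cases and fell in none, at a median of 1.21. The replication helicase gene Mcm5 was at 2.19, 2.65, 2.40 and 2.10 CPM in lean and 12.3, 8.26, 9.82 and 7.16 in HFD control libraries (change 2.01 ± 0.22 (SE, adjusted p = 0.00141)). Top2a, a topoisomerase of dividing cells, was at 1.16, 1.67, 1.94 and 1.49 CPM against 11.2, 5.13, 10.5 and 5.94 (change 2.39 ± 0.32 (SE, adjusted p = 0.00275)), and Mki67 at 1.99, 3.07, 3.77 and 0.699 against 10.2, 6.58, 10.6 and 9.32 (change 1.95 ± 0.43 (SE, adjusted p = 0.0176)). All 3 sets of groups were apart. Cdk1, Ccna2 and Foxm1, drivers of the G2 and M phases, rose by 1.98, 1.90 and 2. Cdk1 lost its call without HFD control 3 (adjusted p up to 0.0535) and Ccna2 without HFD control 1 or 3 or lean 4 (adjusted p up to 0.0627). Ccnd1, the cyclin of cell cycle entry, overlapped at 23.5, 15.3, 25.6 and 16 against 22.7, 18.2, 25.7 and 17.9 CPM, and Pcna did not pass at 0.47. The 13 became 10 with both lean 3 and HFD control 3 left out. Which cells divide cannot be read from whole liver.

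Other cell types gave few calls. T and NK cell, B and plasma cell and dendritic cell markers had no call in 17, 11 and 9 genes by edgeR. At an unadjusted p under 0.05 there were 4 higher and 1 lower on the T and NK list, 0 higher and 2 lower on the B cell list and 3 higher and 0 lower on the dendritic list; DESeq2 called 0, 0 and 1 higher, and voom 0 in each. The summed levels were 14.5 to 27.4 CPM in lean and 16.2 to 28.4 in HFD control libraries for T and NK markers and 38.1 to 123 CPM in lean and 25.3 to 47.8 in HFD control libraries for B cell markers. Cd28 and Igkc were highest in lean 3, at 0.411, 0.372, 17.9 and 0.262 and 11.3, 32.3, 83.1 and 20.6 CPM over the lean libraries. Neutrophil markers gave 1 lower of 13, the granule gene Camp, and their sum of 225 to 3736 CPM in lean and 1017 to 1152 in HFD control libraries was highest in lean 3, mostly through Lcn2, which hepatocytes make too. Camp lost its call without HFD control 1 or lean 2 (adjusted p up to 0.0586). Bile duct markers gave 1 lower of 10, Sox9, which lost its call without HFD control 1, 2, 3 or 4 or lean 2, 3 or 4 (adjusted p up to 0.129), while Krt19, the duct keratin, was at 0.479, 0.836, 0.459 and 0.874 against 1.32, 0.754, 0.587 and 0.569 CPM. The neutrophil and bile duct lists had no call with both lean 3 and HFD control 3 left out, and the B cell list had 1 lower. Pancreatic acinar markers summed to 16.1 to 51.9 CPM in lean and 12.4 to 26 in HFD control libraries, mostly through Cela1, and 1 of 2 tested fell, Cela2a by 1.98 (adjusted p = 0.0278), with its call lost without HFD control 1, 3 or 4 or lean 2 or 3 (adjusted p up to 0.0833). Skeletal muscle markers summed to 0.765 to 2.56 CPM in lean and 0.483 to 0.747 in HFD control libraries and gave no call in 1 gene tested. Cpa1, Pnlip and Myh4 had no counts in the 8 libraries.

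The 4 HFD control libraries differed in how far each group of genes had moved. Cholesterol synthesis fell about equally in all 4. The Kupffer list median was -3.42, -2.76, -1.76 and -3.32 in HFD control libraries 1 to 4, and that of recruited macrophages 1.83, 1.55, 3 and 1.37. Peroxisomal oxidation stood at 0.51, 0.36, 0.91 and 1.04 and lipid droplet proteins at 0.20, -0.09, 0.89 and 0.67, highest in HFD control 3 and HFD control 4. Female-biased genes were at 0.68, 0.17, 1.69 and 1.85, and so the 2 libraries lowest in male-biased genes were the 2 highest in female-biased genes. HFD control 2 lay nearest to the lean libraries for droplet, male-biased, female-biased and complement genes. For Kupffer genes HFD control 3 lay nearest, and for vascular endothelial genes HFD control 1 did. With 4 libraries these orders are a description, and lists that share genes are not independent.

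**Figure D5:**
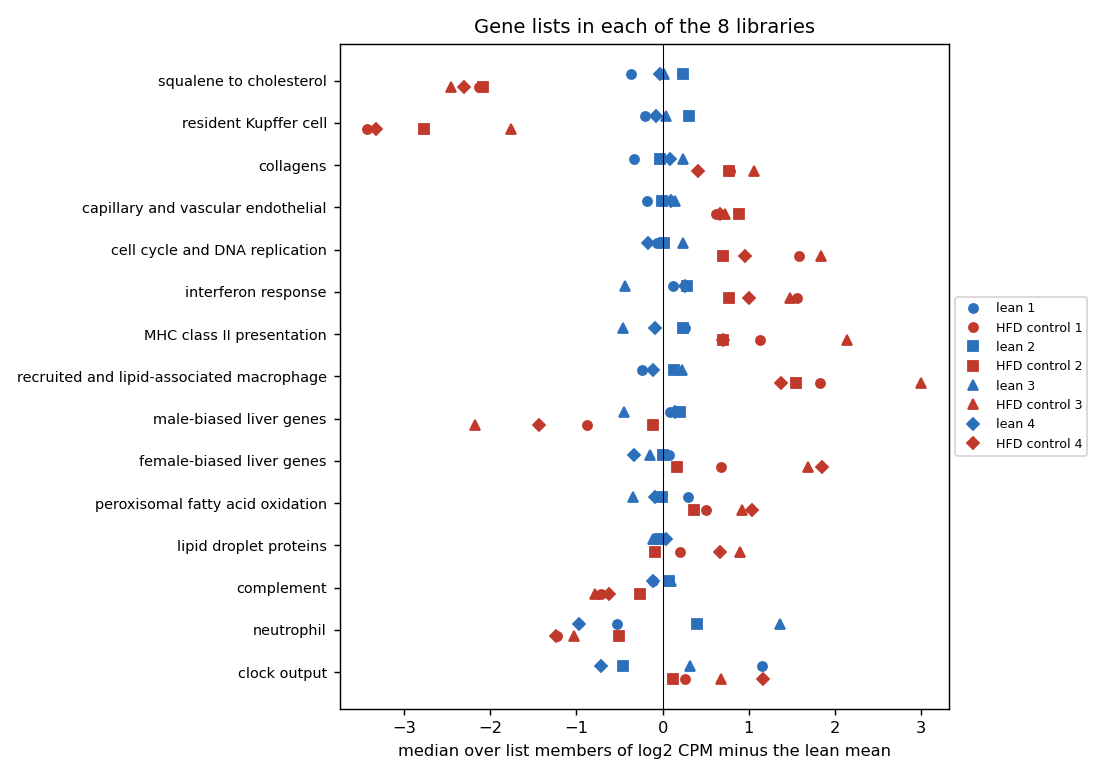
Median over the tested members of 15 gene lists of log2 CPM minus the lean mean, 1 point per library, blue for lean, red for HFD control, with a marker shape per replicate number. The HFD control points for squalene to cholesterol lie at -2.13, -2.08, -2.46 and -2.31, whereas those for male-biased genes run from -2.18 to -0.11.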

How the data were processed

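Liver RNA (100 ng per library, stranded mRNA kit, read pairs of 101 nt, per the labels) was turned by the authors into raw counts per gene on build mm39, with STAR, Trimmomatic and featureCounts named in the submitters' processing notes. For these deposited counts the annotation, tool versions and strand mode were not given in the sources used here. Genes that overlap on opposite strands can therefore share reads. Of 55359 gene IDs, 52083 matched a symbol. The other IDs hold 0.515% of counts.

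The counts went into edgeR 4.0.16 (R 4.3.3) and its 2-sided quasi-likelihood F test (robust), with TMM scaling, filterByExpr at a minimum count of 10, group as the only term over 12 libraries, and Benjamini-Hochberg adjustment over 15274 genes. SE is the value implied by F. CPM uses TMM-scaled totals. List medians by library use log2 CPM with a prior count of 2. Counting intervals, given for ratios with 1 to 3 counts, and the 3-count floor leave out the spread between libraries. The scripts were tested on simulated data.

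The comparison, the 57 gene lists, the fixed genes and the alternatives were chosen with earlier results of these data known. Genes named are the 10 largest changes each way (called, mean of at least 2 CPM, groups apart), the 10 smallest adjusted p, a fixed set of 40, and from each list 2 called members of its main direction plus 1 of the opposite. Any other gene was named after its value was seen. Alternatives were DESeq2 1.42.0, limma 3.58.1 voom, other scalings and filters, only the 8 libraries, a replicate block, and leaving out libraries. Leaving out lean 3 and HFD control 3 together was chosen after seeing the data. Promoters are RefSeq's. Per the submitters' processing notes only mm39 is named, so no coordinates are given for the counted genes. Some genes of the lists are counted but not reported here by name.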

Additional observations from a re-analysis of the deposited data

Results flagged for a closer look

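The highest or lowest library of a group of 4 was set against the other 3 by its gap relative to the whole range. There were 132 groups, formed by 3 library measures and by named genes with at least 12 counts over the group. These genes were those of the largest changes, the smallest adjusted p and the fixed set, without those named only from a list. The gap passed the 95% limit of Dixon's test in 20 groups. That limit is passed by about 1 in 20 groups when values are independent and normally distributed. Genes here share libraries, and many were named for their change in them, so the 20 groups were not tested against chance. Lean 3 stood out in 8 of the 20 and HFD control 3 in 5. No cause was tested.

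Lean 3 was high for Trat1 at 87.2 CPM (others 1.03 to 5.3), Igdcc4 at 38.9 (0.685 to 3.9), Cxcl14 at 217 (15.3 to 45.2), Gramd1b at 4.39 (2.88 to 3.12), Trem2 at 3.72 (1.49 to 1.85), Stab2 at 113 (79 to 83.7), Lyve1 at 44.3 (14.3 to 18) and the cell cycle inhibitor gene Cdkn1a at 259 (2.16 to 34.6). HFD control 3 was high for Ephb2 at 21.3 CPM (others 0.985 to 1.98), Gpnmb at 90.2 (22.5 to 31.6), Gsta1 at 15.2 (0.377 to 2.85), Plin2 at 789 (228 to 321) and Trem2 at 27 (5.4 to 7.34). Lean 1 was high for Cyp4a10 at 14 CPM (1.89 to 2.51), for the clock gene Per2 at 40.4 (11.4 to 15.9), and low for Col1a1 at 4.25 (10.03 to 10.6). Lean 2 was high for Timd4 at 17.1 CPM (12.5 to 13.1), and low for Vldlr at 0.186 (0.408 to 0.437). Lean 4 was high for Nr0b2, a nuclear receptor gene, at 62.8 CPM (11.6 to 19.6). HFD control 2 was high for the clock gene Arntl at 16.8 CPM (1.88 to 3.27).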

How the results depend on the processing

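Against 770 genes higher and 502 lower, library totals alone gave 2383 and 228, DESeq2 1299 and 921, the 8 libraries on their own 618 and 274, and leaving out lean 3 and HFD control 3 gave 323 and 157. DESeq2 shared 1270 of the 1272 calls and voom 998. Leaving out 1 library gave 331 to 926 higher and 196 to 602 lower, with the fewest higher without HFD control 3 and the fewest lower without HFD control 1. RLE size factors (772 and 474), a fit that was not robust (786 and 516), voom (601 and 457), no filter (735 and 344) and a filter of 1 CPM in 4 libraries (795 and 432) stayed within 1.5 times. With the replicate number as a block there were 384 higher and 209 lower, and 582 of the calls were shared. Among lists whose counts moved over 1.5 times there, higher calls of MHC class II genes went from 7 to 1 and of chemokine ligands from 5 to 0. Those of mitochondrial oxidation went from 9 to 2, of interferon response from 18 to 10 and of collagens from 9 to 4. Lower calls of the mevalonate arm went from 8 to 5. Deviations of same-numbered libraries were weakly correlated (0.02, 0, 0.07 and -0.16, with 1 of 4 numbers matching its own best). The labels do not say whether such libraries share a litter, cage or day, and these correlations cannot decide it. Over the 139 named genes, 2067 of 2490 alternative values stayed on the same side of the threshold, 410 lost the call and 13 gained it. Of the changes called in either fit, 0 reversed direction. A change called in neither fit could differ in sign. Cdkn1a was at -1.81 in the main fit and 0.05 without lean 3 and HFD control 3. Depth limits genes near the floor of 3 counts.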

Other observations

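Stress response genes of the endoplasmic reticulum gave 3 lower and 1 higher of 28, at a median log2 change of -0.52. Asns, for asparagine synthetase, was at 35.6, 31.5, 59 and 37.1 CPM in lean and 5.97, 11.6, 1.44 and 0.625 in HFD control libraries (change -3.06 ± 0.73 (SE, adjusted p = 0.0278), and -3.92 without HFD control 2). The groups did not overlap, and HFD control 3 and HFD control 4 were lowest. Xbp1, a transcription factor gene of the unfolded protein response, was at 242, 434, 343 and 679 CPM against 188, 265, 154 and 164 (change -1.14 ± 0.30 (SE, adjusted p = 0.0350)), and Atf4, of the integrated stress response, changed by -0.69. Psat1, of serine synthesis, rose by 1.80. Asns lost its call without HFD control 1 or 3 or lean 2, 3 or 4 (adjusted p up to 0.0791), Xbp1 without HFD control 1, 3 or 4 or lean 2 or 4 (adjusted p up to 0.102), Atf4 without HFD control 1, 3 or 4 or lean 2, 3 or 4 (adjusted p up to 0.111) and Psat1 without HFD control 1 or 3 or lean 1, 2, 3 or 4 (adjusted p up to 0.122). The 3 lower calls became 0 without HFD control 1 or 3 or lean 2 or 4, 1 without HFD control 4 or lean 3, 7 without lean 1 and 0 with both lean 3 and HFD control 3 left out. The 1 higher call also became 0 with both left out.

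Clock genes spread widely inside both groups. No gene was called by edgeR among 15 core clock and 14 clock output genes. At an unadjusted p under 0.05 there were 0 higher and 1 lower core clock genes and 1 higher and 3 lower output genes. DESeq2 called 0 core clock genes and 1 higher and 1 lower output gene, and voom called 0 on either list. Arntl, the positive factor of the clock, was at 0.959, 14.8, 33.5 and 35.3 CPM in lean and 3.27, 16.8, 2.30 and 1.88 in HFD control libraries, and its output Dbp at 135, 47.8, 4.79 and 6.99 against 56.4, 23.2, 86 and 92.2. Lean 1 was low in Arntl and high in Dbp, and HFD control 2 high in Arntl and low in Dbp within its group. Targets of p53 gave 2 higher of 22, the death receptor gene Eda2r (2.03) and Phlda3 (1.62, call lost without HFD control 3 or lean 2 or 4 (adjusted p up to 0.0644)). Cdkn1a, the best known of them, was at 2.16, 7.80, 259 and 34.6 CPM against 21.9, 15.1, 40.7 and 8.44. Hamp, for the iron hormone hepcidin, was at 499, 59.7, 409.7 and 687 CPM against 236, 355, 4.56 and 0.796, within the lean range in HFD control 1 and HFD control 2 and far under it in the other 2. Slc39a14, a zinc and iron importer gene, fell by 1.71, was at -1.02 without lean 3 and lost its call without HFD control 1 or 3 (adjusted p up to 0.0821).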
